A study of Mus musculus with 3 samples.

Results

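The regions described here are the L1 ChIRP peaks that lie in 10 windows around olfactory receptor gene clusters, on 9 mouse chromosomes. A peak was a member when its midpoint fell in a window, and 531 peaks did, of 10239 on the same chromosomes and 24666 in the whole list. The windows were chosen by position and not by the peaks, although with earlier results of these data in view. They add up to 34 Mb, which is 2.99% of the span of these chromosomes, and they held 5.19% of the peaks there.

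ChIRP (chromatin isolation by RNA purification) fishes out an RNA with biotinylated DNA probes, together with the chromatin crosslinked to it. The cells were E14, a line of mouse embryonic stem cells grown with leukemia inhibitory factor, with no genotype change or treatment named in the labels. The series has 3 libraries with 1 replicate each, for L1 RNA, Malat1 RNA and input DNA, and the L1 library was the one analysed here. The labels name genomic DNA as its molecule while the protocol describes reverse transcription of recovered RNA, so whether a peak marks DNA bound by L1 RNA or L1-containing transcripts is not settled. The read depth is unknown, and no difference below could be set against a spread between replicates. Intervals cover counting error only.

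L1 (long interspersed element 1) is a retrotransposon family that fills much of the mouse genome, favouring AT-rich and gene-poor sequence. Olfactory receptors are G protein-coupled receptors that detect odorants. They form the largest gene family of mammals, sit in tandem clusters on many chromosomes, and are kept silent outside the olfactory system, where each sensory neuron chooses a lone receptor allele. Their clusters are known as AT-rich and L1-rich regions. In RefSeq (GRCm38.p6), 940 of 1110 protein-coding genes with an Olfr symbol (84.7%) lie on the 9 chromosomes. Chromosome 2 has 287 of them, chromosome 7 has 239, chromosome 9 has 130, chromosome 10 has 68 and chromosome 19 has 63, followed by 51 on chromosome 17, 39 on chromosome 14, 36 on chromosome 16 and 27 on chromosome 1. In gene order, the longest unbroken run, with at most 10 other genes between members, has 222 receptor genes between Lrrc55 and Ptprj on chromosome 2. On chromosome 7 it has 91 genes between Rrm1 and Trim6, and on chromosome 16 it has 25 between Cldnd1 and Gabrr3. Chromosome 7 has 6 runs of 4 or more receptor genes, and chromosomes 1 and 2 have 3 each. Chromosomes 10, 14, 16 and 17 have 2 runs each. On all of these chromosomes the runs outnumber the windows. These gene positions are of another build than the peaks (mm9). Which receptor genes lie in which window, and whether each window holds a cluster, was therefore not checked here. This includes whether the window of chromosome 16 holds the run of 25 genes or the other run there. The rest of these chromosomes may also hold receptor clusters, so it is not a cluster-free comparison.

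Peaks were denser in the windows than elsewhere on the same chromosomes. The windows together held 15.6 peaks per Mb (95% Poisson interval 14.3 to 17), and the rest held 8.81 (8.64 to 8.99). The ratio was 1.77 (95% exact interval 1.62 to 1.93). Peaks covered 10.9% of the windows and 5.76% of the rest, a ratio of 1.89. These intervals treat peaks as independent and are too narrow, since peaks are clumped: over 1090 bins of 1 Mb in the rest, the variance of the peak number was 6.81 times its mean.

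Of the windows, 9 were denser than the rest of their own chromosome, and in 8 of the 10 the interval of the ratio lay above 1. The largest ratio was on chromosome 19 (12000001 to 14000000, mm9), where 33 peaks gave 16.5 per Mb against 6.02, a ratio of 2.74 (1.86 to 3.92). The proximal window of chromosome 9 (18000001 to 21000000) had 53 peaks, or 17.7 per Mb against 7.23, a ratio of 2.44 (1.81 to 3.23). The window of chromosome 16 (18000001 to 20000000) had 40 peaks in 2 Mb, a ratio of 2.35 (1.67 to 3.23). The last of these was the densest of the 10, and chromosome 19 had the lowest density in the rest of its chromosome. Against sequence within 5 Mb of the windows the ratio was 1.63 on chromosome 19 and 1.62 in the proximal window of chromosome 9. With windows 0.5 Mb shorter at both ends it was 2.57 on chromosome 19, below 3.15 on chromosome 16 and 3.06 in the proximal window of chromosome 9.

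On chromosome 17 (37000001 to 39000000), 37 peaks gave 18.5 per Mb and a ratio of 2.22 (1.55 to 3.09). Chromosome 2 (85000001 to 91000000), the chromosome with the most receptor genes, had 98 peaks, or 16.3 per Mb, a ratio of 2.02 (1.63 to 2.48). The window of chromosome 14 (49000001 to 52000000) held 54 peaks, a ratio of 1.91 (1.43 to 2.51). The distal window of chromosome 9 (37000001 to 41000000) came close to it, with 55 peaks, or 13.8 per Mb, and a ratio of 1.90 (1.42 to 2.5). Chromosome 7 (109000001 to 116000000) has the longest window and the most peaks, 105, which gave a ratio of 1.63 (1.32 to 1.99).

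On chromosomes 10 and 1 the interval of the ratio held 1. The window of chromosome 10 (128000001 to 130000000) held 24 peaks and had a ratio of 1.36 with an interval from 0.87 to 2.04. This interval overlapped those of other windows, and the ratio of its covered share was 1.79, close to the 1.83 of chromosome 7. The window of chromosome 1 (174000001 to 177000000) held 32 peaks, or 10.7 per Mb against 10.9 in the rest, a ratio of 0.97 (0.67 to 1.38). Chromosome 1 has the densest rest of the 9 chromosomes, and its window was the least dense of the 10. With this window and the rest of chromosome 1 both left out, the pooled ratio was 1.92.

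**Figure D1:**
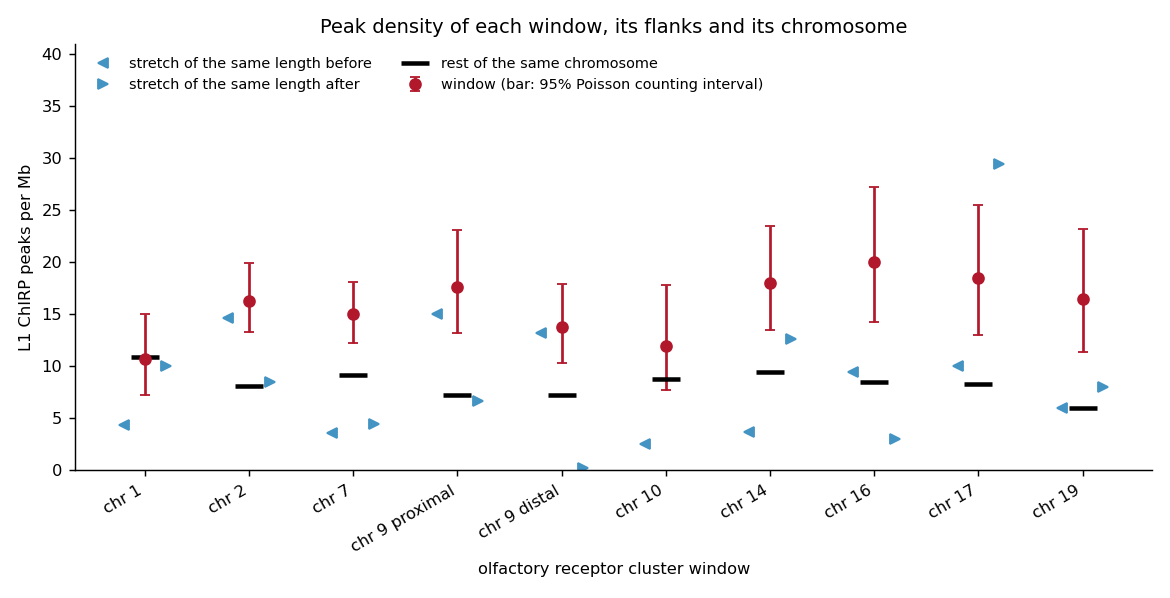
Peaks per Mb in each window (red points, 95% Poisson counting interval), in the stretches of the same length before and after it (blue triangles) and in the rest of the same chromosome (black bars). The windows lie between 10.7 and 20 peaks per Mb, and the black bars between 6.02 and 10.9; chromosome 17 has a denser stretch after its window, and chromosome 10 has none after it.

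The order of the windows by density was 16, 17, 14, 9 proximal, 19, 2, 7, 9 distal, 10 and 1. For none of the 9 pairs next to each other in that order did the interval of the ratio lie above 1. The most distant pair, chromosomes 16 and 1, had a ratio of 1.88 (1.15 to 3.08). Of all 45 pairs, 5 had a 95% interval above 1, each with chromosome 1 as the sparser side, and 0 did once the level was adjusted for 45 intervals. The order of the windows is thus not settled by these counts.

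A window can also be read against the other stretches of its length on its own chromosome, taken in steps of 1 Mb outside the windows. On chromosome 2, 3.73% of 161 such stretches held at least as many peaks as the window. This share was 4.44% on chromosome 16, 5.26% on chromosome 14, 5.66% on chromosome 19, 6.6% for the proximal and 14.6% for the distal window of chromosome 9, and 9.2% on chromosome 17. It reached 21.3% on chromosome 7, 30.1% on chromosome 10 and 44.1% on chromosome 1. Stretches that overlap share peaks, so these shares are descriptions. Read this way, 6 windows were matched by fewer than 10% of the stretches, and those of chromosomes 9 (distal), 7, 10 and 1 by a larger share.

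Peak-rich bins were common in the windows, and empty ones were missing. Of the 34 bins of 1 Mb in the windows, 13 held 20 or more peaks (38.2%, 95% exact binomial interval 22.2 to 56.4), against 10.7% of the bins in the rest. None of the 34 was without a peak, which allows a share of up to 10.3% by the same interval, and in the rest 11.1% were. The number of peaks per bin ranged from 3 to 36 in the windows, with a median of 14, and from 0 to 43 in the rest, with a median of 7. Neither the highest nor the lowest bins of these chromosomes lay in a window.

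Within a window the peaks were unevenly spread. On chromosome 16 the bin from 18000001 held 4 peaks and that from 19000001 held 36, which covered 35.1% of it, the highest coverage of the 34 bins. On chromosome 9, the distal window had 24 and 22 peaks in its inner bins and 6 and 3 in its outer ones. On chromosome 2 the bins from 87000001, 88000001 and 89000001 held 22, 22 and 20 peaks, and that from 90000001 held 7. Chromosome 14 had 5 peaks in its first bin and then 24 and 25. The proximal window of chromosome 9 had 20, 25 and 8, and chromosome 19 had 11 and 22. By contrast, chromosome 10 had 12 in each bin and chromosome 17 had 19 and 18. On chromosome 1 the bins held 9, 12 and 11 peaks, so none of them reached 20.

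The chromosome 7 window showed a break in its middle. Its bins held between 7 peaks, in the first bin, and 26, in the last, from 115000001. A stretch of 675 kb from 112507591 to 113182902 held no peak and was the longest with peaks of the same window on both sides. The next longest such stretches were 428 kb on chromosome 14 (51380981 to 51808495) and 401 kb on chromosome 9 (40305902 to 40706758). It measured 351 kb on chromosome 16 (18490279 to 18841552), 346 kb on chromosome 1 (176291816 to 176638013) and 309 kb on chromosome 19 (12586224 to 12895154). The shortest maxima were 211 kb on chromosome 10 (129031488 to 129242549), 207 kb in the proximal window of chromosome 9 (18351622 to 18558458), 188 kb on chromosome 17 (38108424 to 38296087) and 184 kb on chromosome 2 (86971264 to 87155013). Empty ends are not in these values: the last 549 kb of the chromosome 2 window and the last 773 kb of the proximal window of chromosome 9 held no peak. Whether assembly gaps lie in these stretches was not tested.

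**Figure D2:**
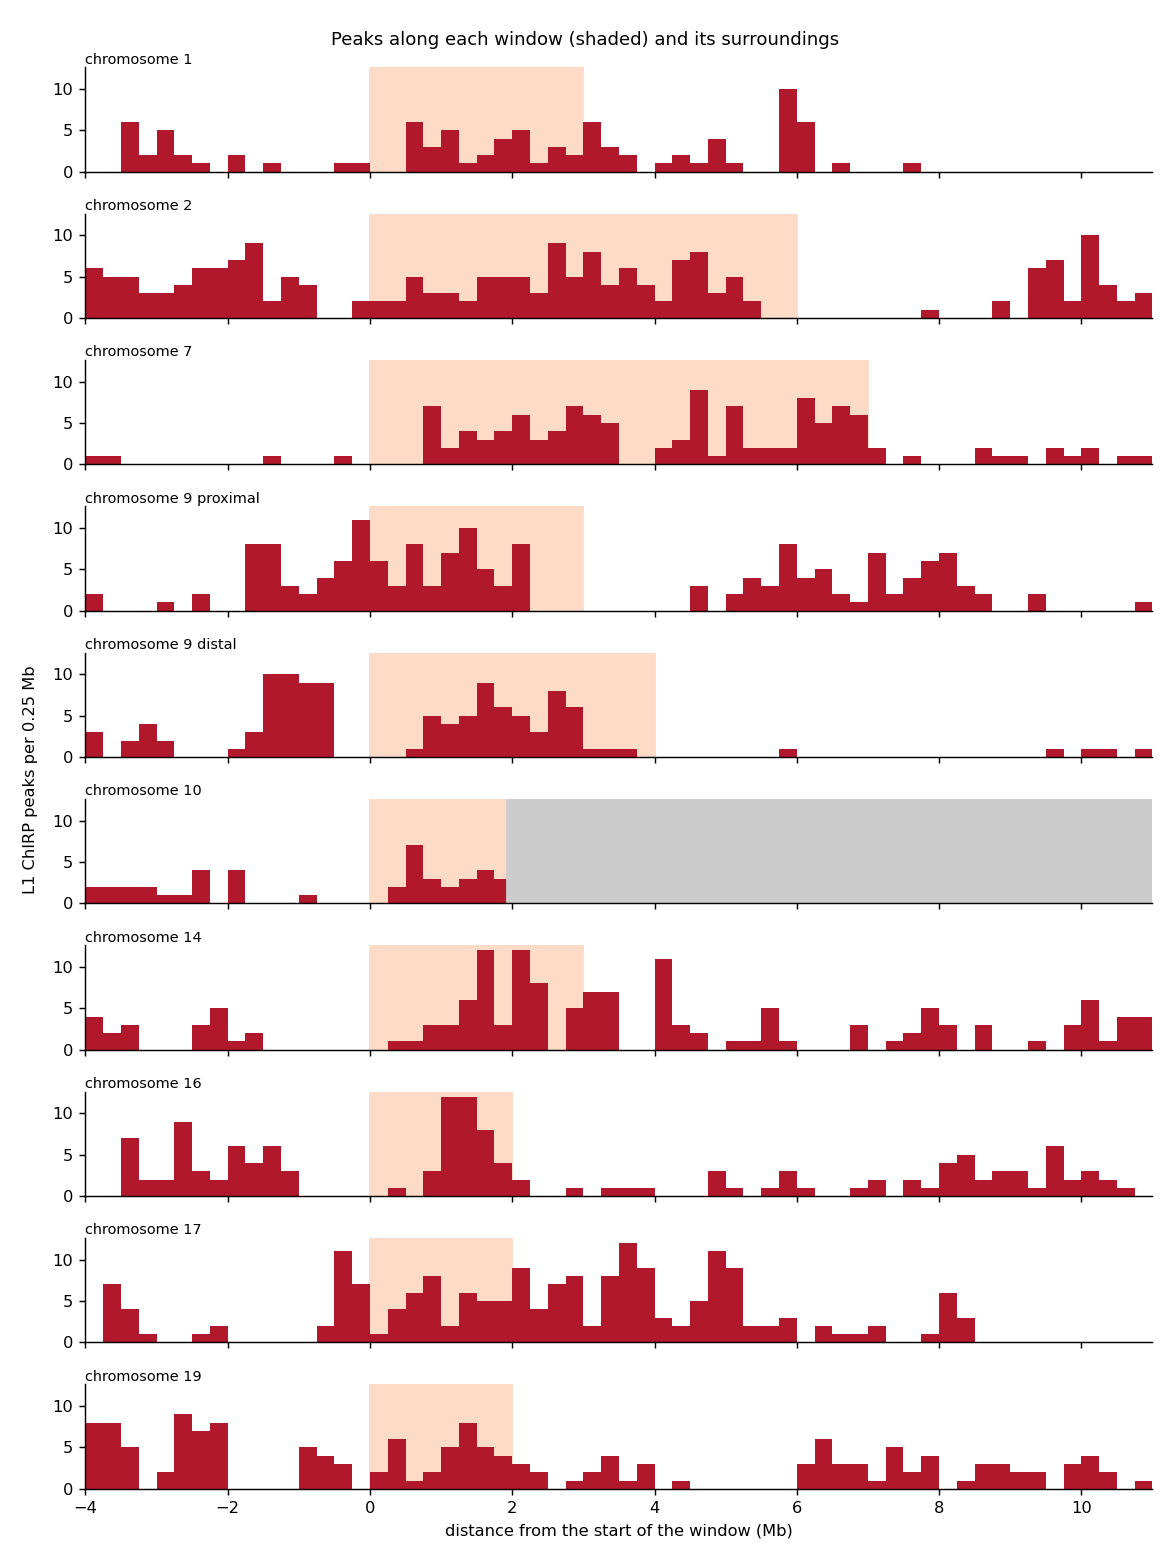
Number of peaks per 0.25 Mb against the distance from the start of each window in Mb, with the window shaded in pink and sequence beyond the last peak of the chromosome in grey. Blocks of peaks with empty sequence beside them can be seen at chromosomes 2, 7, 9 proximal, 9 distal, 10, 14 and 16. On chromosome 17 the peaks run on past the end of the window.

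Many of the window limits lay close to a change in density. In the first and last 1 Mb inside the windows the peak number was compared with the 1 Mb just outside, for the 19 limits that have such a stretch. Inside was higher at 13 limits, lower at 5 and equal at 1, with 261 peaks inside and 148 outside in total. At 10 limits the outer 1 Mb held 5 or fewer peaks. Such low numbers were common in the rest, whose 1 Mb bins had a lower quartile of 2 and a median of 7 peaks. The sharpest step was at the end of the chromosome 16 window, with 36 peaks inside and 3 outside, followed by the end on chromosome 7, with 26 and 3. At the start on chromosome 10 there were 12 inside and 1 outside.

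Peak-free stretches also crossed several limits. Of 18 limits that have peaks on both sides and none across them, 8 lay in a peak-free stretch of 1 Mb or more. The longest ran for 2.49 Mb over the end of the chromosome 2 window (90451208 to 92942268), followed by 2.30 Mb over the end of the proximal window of chromosome 9 (20227015 to 22529596) and 2.15 Mb over the end of the distal one (40713283 to 42862819). At starts, the stretch measured 2.08 Mb on chromosome 14 (47372082 to 49448352) and 1.64 Mb on chromosome 16 (16846032 to 18486344). The other 3 lay at the starts on chromosome 10 (1.23 Mb), chromosome 9 distal (1.20 Mb) and chromosome 7 (1.01 Mb). On chromosome 1 the stretch at the start was shorter, 812 kb. Long peak-free stretches also occurred in the rest, up to 7074 kb, and 11.1% of its 1 Mb bins held no peak. What share of the rest lies in stretches of 1 Mb or more was not computed. The count of 8 limits is therefore not shown to be a trait of the windows. The windows are given in whole Mb, and 5.93 Mb of their length (17.4%) lay in the peak-free stretches at these 18 limits. With 0.5 Mb taken off both ends of every window the pooled ratio rose to 2.08.

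The flanks differed between windows. Compared with the stretches of the same length before and after, 9 windows were denser than each flank they have. Chromosome 7 stood on a sparse background, with 3.57 peaks per Mb before and 4.43 after, against 15 inside. On chromosome 9, with 7.23 per Mb in the rest, the proximal window had 15 per Mb before and 6.67 after. The distal window of chromosome 9 had 13.3 per Mb before and 0.25 after. Chromosome 17 was the exception, with 10 per Mb before and 29.5 after, so the window is the lower part of a longer peak-rich region. On chromosome 2 the flank before the window had 14.7 per Mb, close to the 16.3 inside, and the flank after it had 8.5, close to the 8.08 of the rest of the chromosome. The window of chromosome 7 thus had sparse flanks on both sides. Those of chromosomes 2 and 17 and both windows of chromosome 9 had 1 flank well above the rest of their chromosome.

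Peaks in the windows were about as wide as elsewhere. The median width was 6515 bp (95% order-statistic interval 6232 to 6784, quartiles 4207 and 8474), against 6303 bp in the rest (6237 to 6353, quartiles 4052 and 8063). The difference was 212 bp, and the interval of the windows' median held the median of the rest. Widths in the windows ran from 1033 to 26600 bp. The share of peaks of 6 to 7.5 kb, the range around the length of a full L1 element, was 21.7% (115 peaks, 18.2 to 25.4) in the windows and 22.7% (2208 peaks) in the rest. Peaks of 10 kb and over made up 15.4% (82 peaks, 12.5 to 18.8) against 12% (1162 peaks, 11.3 to 12.6). Against sequence within 5 Mb of the windows, however, the difference changed from 3.47 to -0.78 percentage points. It was 1.14 when the window of chromosome 16 was left out with the rest of that chromosome. Peaks below 2 kb made up 4.33% and 4.22%.

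Between windows the widths differed more than the pooled values show. The median was above that of the rest of the chromosome in 8 windows and below it in 2, and in 3 windows, those of chromosomes 7, 10 and 14, the interval of the median did not hold the median of the rest. On chromosome 10 it was 8344 bp (7157 to 10408) against 6676 bp. On chromosome 7 it was 6540 bp (5933 to 7225) against 5595 bp. Chromosome 14 went the other way, with 4775 bp (3628 to 5472) against 5904 bp. Only 1 of its 54 peaks reached 10 kb, and 61.1% measured 2 to 6 kb.

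Chromosome 16 had a median of 8330 bp, but with an interval from 5430 to 10643 that held the 6439 bp of the rest. Its peaks of 10 kb and over made up 42.5% (17 of 40, 27.0 to 59.1) against 10.6% in the rest of the chromosome, while those of 6 to 7.5 kb made up 5.00%. As a result 18.6% of this window was covered, 3.37 times the share in the rest, a larger factor than the 2.35 for the number of peaks. On chromosome 14 the reverse held: the covered share was 8.72%, or 1.54 times that of the rest, against 1.91 for the number. On chromosome 1 the covered share, 5.85%, was 0.81 times that of the rest.

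**Figure D3:**
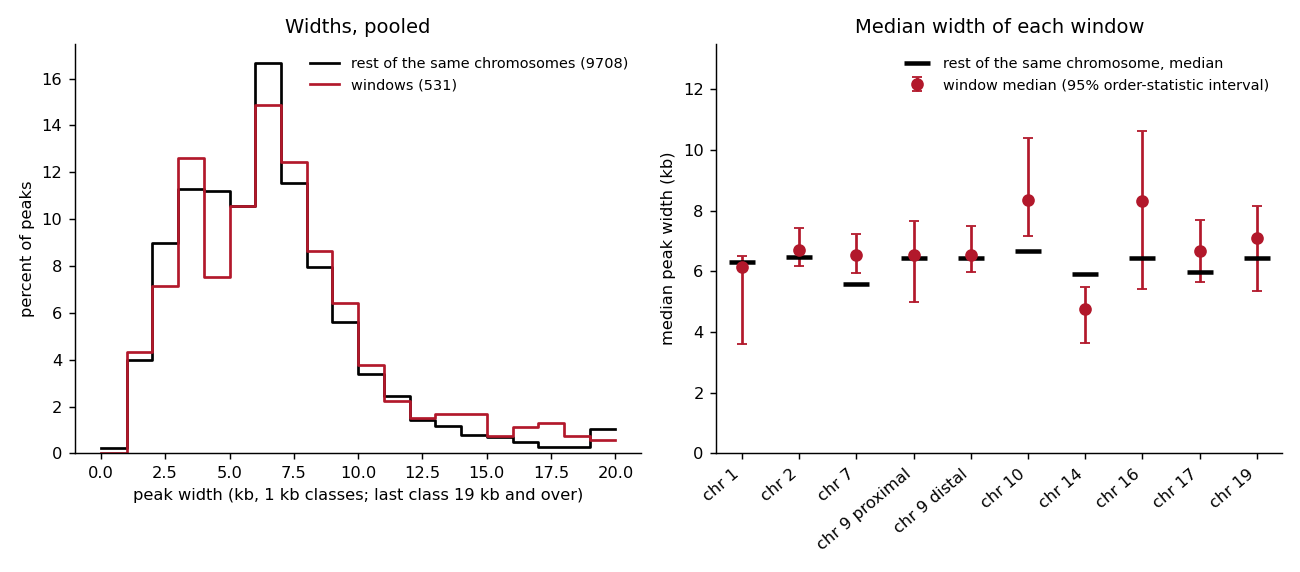
Left, percent of peaks in width classes of 1 kb for the 531 peaks of the windows (red) and the 9708 of the rest (black). Right, median width in kb of each window with its 95% order-statistic interval (red) and of the rest of its chromosome (black bars); chromosomes 10 and 16 have the highest medians, 8344 and 8330 bp, and chromosome 14 the lowest, 4775 bp.

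The widest peak of all windows measured 26.6 kb and lay on chromosome 2 from 87746448 to 87773047, 12.5 kb from its nearest neighbour. The next was on chromosome 16 from 19101092 to 19125888, 24.8 kb wide, with another peak 30 bp away. On chromosome 10 it measured 18.7 kb (128707596 to 128726304), on chromosome 7 17.8 kb (111942615 to 111960436) and on chromosome 17 17.6 kb (37477566 to 37495190). It measured 17.1 kb in the proximal window of chromosome 9 (18040943 to 18058007) and 16.96 kb in the distal one (39866174 to 39883136). The narrowest of the 10 were 14.5 kb on chromosome 19 (13190799 to 13205345), 12.5 kb on chromosome 1 (175184686 to 175197190) and 10.5 kb on chromosome 14 (51224140 to 51234632). Some wide peaks thus stand alone and others have a neighbour less than 100 bp away, for which the division into peaks depends on the caller.

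The median gap was shorter in the windows than in the rest, and how the frequency of close neighbours compared depended on the distance taken. The median gap to the next peak was 27.0 kb (24.2 to 31.1) in the windows and 36.8 kb in the rest, and the upper quartiles were 63.0 and 98.3 kb. The difference of -9.79 kb shrank to -1.12 kb against sequence within 5 Mb of the windows. It was shorter than in the rest of the chromosome in 9 windows, chromosome 1 being the exception with 47.9 kb against 31.6 kb. Of the 531 peaks, 86.4% (83.2 to 89.2) had a neighbour within 50 kb, against 78.4% of the rest. Within 10 kb the shares were 42.4% (225 peaks, 38.1 to 46.7) and 39.9% (3872 peaks, 38.9 to 40.9), a difference of 2.49 points. Here the interval of the windows held the share of the rest. Within 5 kb the shares were 34.5% (183 peaks, 30.4 to 38.7) and 28.4% (27.5 to 29.3), a difference of 6.07 points.

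The differences in close neighbours within 5 and 10 kb fell without the windows of chromosomes 14 or 16. On chromosome 16, 67.5% of peaks (50.9 to 81.4) had a neighbour within 10 kb, against 34.3% of the rest of the chromosome, and on chromosome 14, 64.8% (50.6 to 77.3) against 34.8%. Leaving out either window with the rest of its chromosome took the pooled 10 kb difference to -0.06 (16) or -0.72 points (14). In the same way it rose to 4.62, 4.44 or 4.32 points without chromosome 1, 2 or 7. Leaving out any other window gave 1.87 to 3.18 points. At 5 kb, a split chosen after seeing the data, only windows were left out and the rest was kept whole. There the difference fell to 3.99 points without 16 and 2.85 without 14. Without both windows the share was 28.6%, against 28.4% in the rest. The share within 10 kb was higher than in the rest of the chromosome in 4 windows and lower in 6. On chromosome 1 it was 21.9% (9.28 to 40) against 42.9%, and on chromosome 2 it was 33.7% (24.4 to 43.9) against 39.8%. Median gaps of 10.6 kb on chromosome 16 and 14.8 kb on chromosome 14 were the shortest, and the other 8 windows had medians from 26.2 to 47.9 kb.

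**Figure D4:**
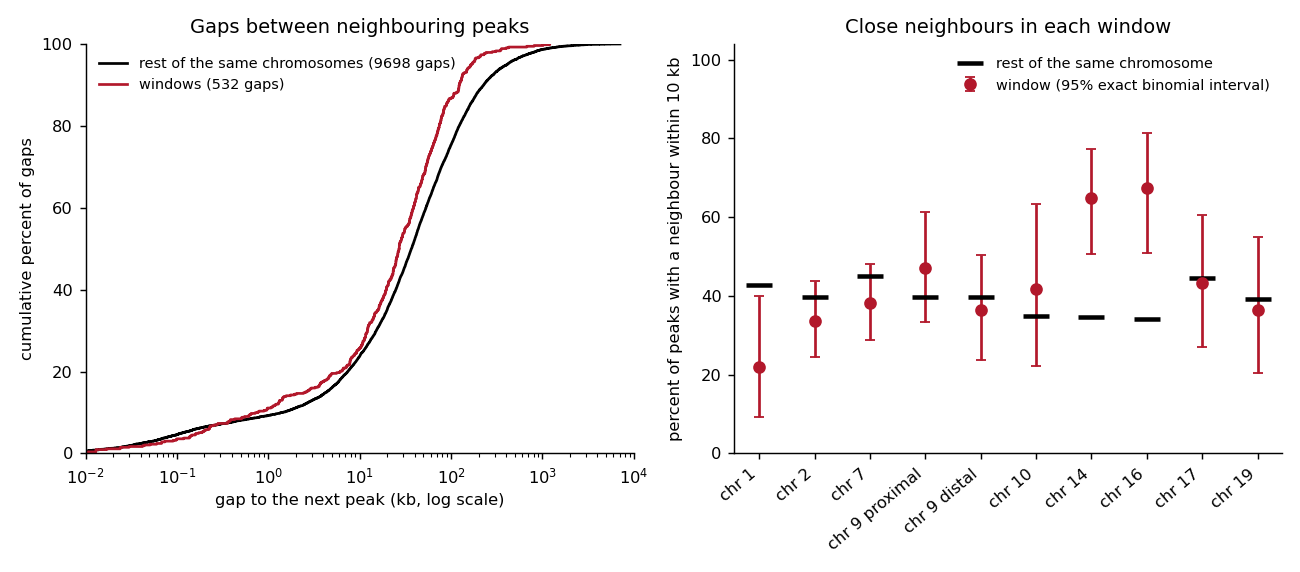
Left, cumulative percent of gaps between neighbouring peaks up to a given length (kb, log scale) for the windows (red) and the rest (black). Right, percent of peaks with a neighbour within 10 kb in each window with its 95% exact binomial interval (red) and in the rest of its chromosome (black bars); chromosomes 14 and 16 lie far above their black bars and chromosome 1 below its own.

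Dense parts of the windows had fewer close neighbours than bins of the same class elsewhere, a split by bin density that was chosen after seeing the data. In bins of 1 Mb with 20 or more peaks, 47.1% (41.4 to 52.8) of the windows' 308 peaks had a neighbour within 10 kb, against 56.9% (55.0 to 58.7) of those in the rest. By bin, the share had a median of 40.9% over 13 bins (20 to 76.0) and of 56.0% over 117 bins of the rest, with quartiles of 45.8% and 65.0%. Of the 13 bins, 9 lay below the median of the rest. In bins of 10 to 19 peaks the shares were 33.9% (26.9 to 41.5) and 39.1%. In bins of 1 to 9 peaks the order was the opposite, 42.9% (28.8 to 57.8) against 21.7%, from 49 peaks in 8 bins.

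Among the 13 dense bins, those on chromosome 2 from 89000001 and on chromosome 7 from 111000001 had the lowest share, with 4 of 20 peaks each near another. Their gaps still ran from 68 bp to 133 kb and from 13 bp to 168 kb. The bin of chromosome 2 from 88000001 had 5 of 22 and that of chromosome 19 from 13000001 had 6 of 22. At the other extreme, 19 of 25 peaks on chromosome 14 from 51000001 and 27 of 36 on chromosome 16 from 19000001 had a close neighbour. Dense bins of the windows thus covered a wide range of shares, from 20% to 76%.

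**Figure D5:**
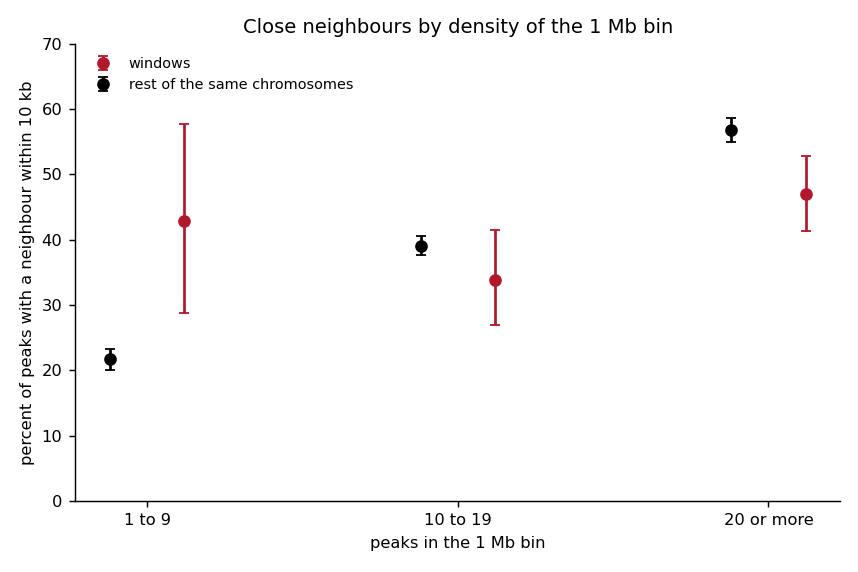
Percent of peaks with a neighbour within 10 kb, with 95% exact binomial intervals, for bins of 1 Mb that hold 1 to 9, 10 to 19 and 20 or more peaks, in the windows (red) and in the rest of the same chromosomes (black). In the densest class the windows are lower, 47.1% against 56.9%, and in the sparsest class they are higher, 42.9% against 21.7%.

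Tight rows of 4 or more peaks, each within 10 kb of the next, numbered 8 in the windows and took in 46 peaks (8.66%, 6.41 to 11.4), against 7.38% of peaks in the rest. They lay in 6 windows and in none of those of chromosomes 1, 2, 7 and 17. The longest row had 10 peaks within 59.7 kb on chromosome 14 (51201149 to 51260800), 1 more than the longest in the rest of these chromosomes, and its peaks were 1262 to 10493 bp wide. Chromosome 16 had rows of 8 peaks from 19041027 to 19147735, 92.5% covered, and from 19333275 to 19420438, 75% covered. The other 5 rows had 4 peaks each, and in that of chromosome 9 from 18593562 to 18616880 the gaps measured between 13 and 385 bp.

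Width and spacing went together in the windows as in the rest. Of the 225 window peaks with a neighbour within 10 kb, 14.2% (9.94 to 19.5) measured 6 to 7.5 kb, against 26.5% (21.0 to 32.6) of the 234 whose nearest peak lay 10 to 50 kb away and 29.2% (19 to 41.1) of the 72 farther than 50 kb. In the rest the shares were 17.6%, 26.5% and 25.7%. Peaks the size of a full L1 element were therefore less frequent in close rows than among the more isolated peaks, in the windows and in the rest.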

How the data were processed

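The peak list of the L1 library, as deposited by the authors, gives a chromosome and 2 positions for every peak, with no score. The submitters' processing notes name CASAVA, Bowtie2 2.2.2, MACS 1.4.2 and mm9 but no settings. The sources used here do not give how reads from repeats were placed, nor whether input served as control. Both could alter which L1 copies carry a peak. Per the labels' protocols, probes were 59 nt long and sonication gave fragments of 2 to 5 kb, which limits how finely a peak can be placed.

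The windows, members and limits for bins and neighbours were chosen with earlier results of these data known. Positions are printed from 1. The rest of a chromosome runs from its first to its last peak, less its windows, with assembly gaps kept. A gap belongs to the region of its midpoint. Intervals are exact Poisson (densities), conditional exact (ratios), Clopper-Pearson (shares) and order-statistic (medians), all at 95%. With 1 library no test across samples was possible. Every window was named, with its widest peak, longest peak-free stretch, fullest and emptiest bins and rows of 4 or more peaks. No mm9 genome was used, so no sequence is given. Functions were tested on simulated data, with Python 3.11.15, numpy 2.4.6, pandas 2.3.3, scipy 1.17.1 and matplotlib 3.10.9.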

Additional observations from a re-analysis of the deposited data

Results flagged for a closer look

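Unplaced sequence assigned to the chromosomes of the windows held 25 peaks, which no comparison above uses: 9 for chromosome 1, 7 for chromosome 9, 4 each for chromosomes 7 and 17, and 1 for chromosome 16. Their median width was 6160 bp. Whether any of them belongs to a receptor cluster is not known, since these pieces have no position. No control library was analysed here.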

How the results depend on the processing

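The pooled density ratio of 1.77 stayed above 1 in every alternative tried. It became 2.08 with windows 0.5 Mb shorter at both ends, 1.45 with windows 1 Mb longer and 1.59 without empty 1 Mb bins, all outside its counting interval. The covered ratio of 1.89 became 2.15 and 1.55 with shorter and longer windows. It ran from 1.79 to 2.08 when each window was left out in turn (lowest without chromosome 16, highest without chromosome 1). The rest of the window's chromosome was then left out too, except on chromosome 9, which has another window. Against sequence within 5 Mb of the windows, the density ratio was 1.87, but the median gap differed by -1.12 kb in place of -9.79 kb, the median width by -12 bp in place of 212 bp, and the share of peaks of 10 kb and over by -0.78 in place of 3.47 points. The difference in close neighbours, 2.49 points, had no settled direction: it was -6.05 against that nearby sequence, -2.46 after peaks closer than 5 kb were merged, 6.07 and 8.0 for neighbours within 5 and 50 kb, and, chosen after seeing the data, -5.19 and -9.78 in bins of 10 to 19 and of 20 or more peaks. The causes of these shifts were not tested. Of single windows, chromosome 10 fell to 0.94 with longer windows, and chromosome 16 to 1.24. With merging at 5 kb, chromosome 14 fell from 1.91 to 1.35 and chromosome 16 from 2.35 to 1.61. Against nearby sequence chromosome 7 rose from 1.63 to 5.17 and chromosome 1 from 0.97 to 1.75, while chromosomes 19, 9 (proximal), 2 and 17 fell to 1.63, 1.62, 1.36 and 1.33. No paired analysis was possible because the L1 list comes from 1 library without a replicate. Depth is unknown, so a stretch without a peak may hold signal below detection.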
